A study of Oryza sativa Japonica Group with 6 samples.

Results

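Plant cysteine oxidases are iron-dependent enzymes that use molecular oxygen to oxidise a cysteine exposed at the N terminus of a protein. In Arabidopsis the best-known substrates are the group VII ethylene response factors, whose oxidised N terminus is arginylated and then recognised by a ubiquitin ligase, so that these transcription factors are degraded while oxygen is plentiful and persist when it is scarce. PCO1 and PCO2 of Arabidopsis are themselves induced by low oxygen, and the inside of developing cereal grains is known to be poor in oxygen. The 4 rice loci described here were chosen by name as genes annotated with detection of hypoxia and peptidyl-cysteine oxidation: LOC_Os01g09030 and LOC_Os01g40450 on chromosome 1, LOC_Os08g37470 on chromosome 8 and LOC_Os12g42860 on chromosome 12. They are 4 of the 55983 genes listed, and all 4 were among the 16352 genes that reached 1 TPM in 3 or more libraries, which were the genes tested. They were chosen with their difference between mutant and wild type in view, so their levels are given as a description, without a test.

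RNA was taken from grains of 2 genotypes of Oryza sativa Japonica Group. The sgs3 mutant was represented by 3 libraries and the wild type, the line Zhenong 34, by 3 libraries. The labels give no developmental stage, no treatment other than control and no statement that the 3 libraries of a genotype came from separate plants, so the spread between libraries may be technical. They do not say which gene carries the mutation. In Arabidopsis, SGS3 is an RNA-binding protein needed to make secondary small interfering RNAs. LOC_Os12g09580, annotated as an SGS3 homologue, was listed at 8.73, 11.6 and 29.2 TPM in the mutant libraries and at 94.9, 40.9 and 53.5 TPM in the wild-type libraries. After the scaling described below it was at 17.7, 16.3 and 30.2 in the mutant and at 47.3, 38.7 and 34.1 in the wild type. Of all genes tested, 52.6% were lower in the mutant without overlap on TPM and 20.4% after scaling.

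The values are in TPM, a share of each library's transcripts corrected for transcript length, and the number of reads behind them is unknown. Markers of the starchy endosperm were present in every library. Glutelin transcripts summed to 205441, 207053 and 196541 TPM in the mutant, against 26673, 162227 and 135490 TPM in the wild type over 16 genes. Prolamin transcripts summed to 217141, 156037 and 177952 TPM in the mutant and to 13830, 137774 and 96334 TPM in the wild type over 33 genes, 2 of them at 0 in every library. Wild-type replicate 1 therefore stood apart, with storage protein transcripts far below those of the other 5 libraries. Oleosin transcripts, found in embryo and aleurone, summed to between 2854 and 3823 TPM in the mutant and between 1017 and 4269 TPM in the wild type, and chlorophyll a-b binding transcripts of green pericarp to between 9.76 and 158 TPM in the mutant and between 9.91 and 121 TPM in the wild type. Fewer cells of a type and less RNA per cell cannot be told apart in these bulk libraries.

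The median over all genes of the difference in log2(TPM + 1), mutant minus wild type, was -0.86. Most results are given both on TPM as deposited and after median-of-ratios scaling, after which that median was -0.01. The scaling divided TPM by 0.494, 0.712 and 0.967 in the mutant libraries and by 2.01, 1.06 and 1.57 in the wild-type libraries. The part of storage protein content in the results below was not tested.

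All 4 cysteine oxidases had a higher mean in the mutant on both scales, where 12.6% of all genes tested had a log2 difference above 0 on TPM and 49.3% after scaling. On TPM, 3 of the 4 had no overlap between the groups, and after scaling all 4 did. Of all genes tested, 3.68% were higher in the mutant without overlap on TPM and 17.0% after scaling, and 52.6% were lower without overlap on TPM and 20.4% after scaling. These shares are the background of the table, and the counts of the 4 genes follow from how they were chosen.

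A gene is called closest to the protein that was its best Swiss-Prot match, and no tree was made. LOC_Os12g42860, closest to Arabidopsis PCO2, was the most abundant of the 4. It was listed at 48.0, 84.8 and 67.6 TPM in the mutant libraries, against 72.8, 33.9 and 55.9 TPM in the wild-type libraries. The groups overlapped, with mutant replicate 1 below the wild-type replicates 1 and 3. Its mean was 66.8 ± 18.4 TPM in the mutant and 54.2 ± 19.5 TPM in the wild type (SD, n = 3 each), a difference of 0.33 on the log2(TPM + 1) scale (SE 0.39). After scaling it stood at 97.3, 119 and 69.8 in the mutant and at 36.2, 32.1 and 35.7 in the wild type. The scaled groups did not overlap, and the wild-type libraries lay close together, at 34.7 ± 2.25 against 95.4 ± 24.7 in the mutant. The mutant-to-wild-type ratio of means was 1.23 on TPM and 2.75 after scaling, so the size of the difference in this gene rests on the scaling.

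LOC_Os01g40450, with Arabidopsis PCO1 as its best Swiss-Prot match, was listed at 16.3, 18.8 and 18.8 TPM in the mutant, against 15.0, 6.61 and 7.85 TPM in the wild type. All 3 mutant libraries were above all 3 wild-type libraries, and wild-type replicate 1 was the one nearest to them. The means were 18.0 ± 1.44 TPM in the mutant and 9.82 ± 4.52 TPM in the wild type, a ratio of 1.83 and a log2 difference of 0.89 (SE 0.33). After scaling the values were 33.0, 26.4 and 19.4 in the mutant, against 7.46, 6.26 and 5.01 in the wild type, a ratio of 4.21. Its scaled log2 difference, 1.90 (SE 0.26), was the highest of the 4 genes on the log2(value + 1) scale, while the ratio of scaled means was higher in LOC_Os08g37470.

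LOC_Os01g09030, which has Arabidopsis PCO2 as its best Swiss-Prot match, was listed at 8.89, 11.5 and 10.7 TPM in the mutant libraries and at 8.39, 6.06 and 7.11 TPM in the wild-type libraries. The groups did not overlap, although mutant replicate 1 and wild-type replicate 1 lay close together. The means were 10.4 ± 1.33 TPM in the mutant and 7.19 ± 1.17 TPM in the wild type, with a ratio of 1.44 and a log2 difference of 0.47 (SE 0.16). After scaling the levels were 18.0, 16.1 and 11.0 in the mutant, against 4.18, 5.74 and 4.54 in the wild type. The scaled ratio of means was 3.13, and the scaled log2 difference was 1.45 (SE 0.23).

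LOC_Os08g37470, a further gene closest to PCO1, was the least abundant. It was listed at 2.62, 2.12 and 2.26 TPM in the mutant, against 0.27, 0.94 and 0.17 TPM in the wild type. Every wild-type library was below 1 TPM, so the gene passed the filter on low values only through the mutant libraries and had to differ. The means were 2.33 ± 0.26 TPM in the mutant and 0.46 ± 0.42 TPM in the wild type. Their ratio of 5.07 was the highest of the 4 genes on TPM, and the log2(TPM + 1) difference was 1.23 (SE 0.23), a scale that understates the change of a gene this low. With a pseudocount of 0.1 in place of 1 the log2 difference was 2.37. After scaling the levels were 5.31, 2.98 and 2.34 in the mutant, against 0.13, 0.89 and 0.11 in the wild type, a ratio of means of 9.37 and a log2 difference of 1.71 (SE 0.37).

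**Figure D1:**
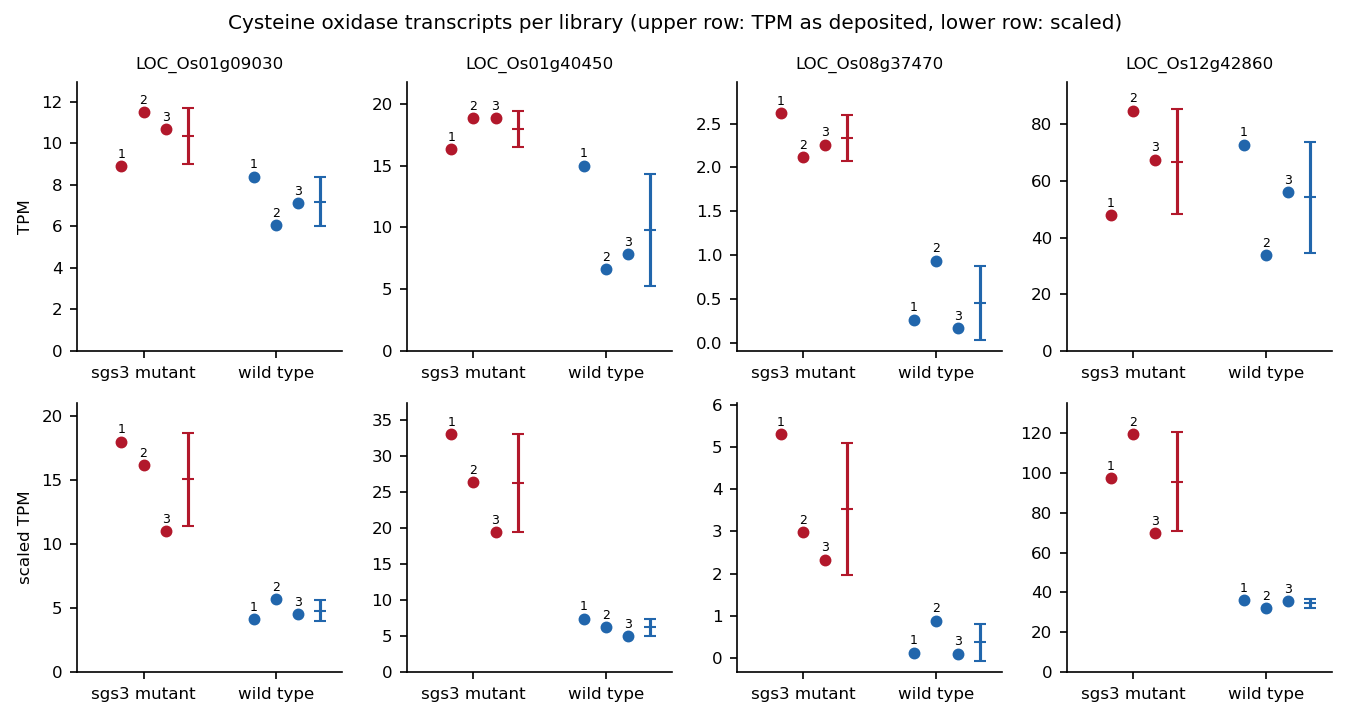
Level of the 4 cysteine oxidases in each library, as TPM in the upper row and as median-of-ratios scaled TPM in the lower row, with the sgs3 mutant in red on the left and the wild type in blue on the right of each panel. Numbers are replicate labels, and bars show the mean ± SD of 3 libraries. Only LOC_Os12g42860 on TPM has overlapping groups.

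In both genotypes the levels per transcript length ran in the same order of means, LOC_Os12g42860, LOC_Os01g40450, LOC_Os01g09030 and LOC_Os08g37470. In the mutant every neighbouring pair in that order was separated in all 3 libraries on TPM. In the wild type the ranges of LOC_Os01g40450, 6.61 to 15.0 TPM, and of LOC_Os01g09030, 6.06 to 8.39 TPM, overlapped across libraries, although LOC_Os01g40450 was the higher of the pair within each of the 3 libraries. Wild-type replicate 1, poor in storage protein transcripts, had the highest TPM of its group for LOC_Os01g09030, LOC_Os01g40450 and LOC_Os12g42860. Without it the log2(TPM + 1) differences were 0.58 for LOC_Os01g09030, 1.21 for LOC_Os01g40450, 1.14 for LOC_Os08g37470 and 0.57 for LOC_Os12g42860. After scaling and without that library they were 1.34, 1.99, 1.50 and 1.43, in the same order of genes. Within the mutant, replicate 1 had the smallest scaling factor and the highest scaled level of LOC_Os01g09030, LOC_Os01g40450 and LOC_Os08g37470.

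The annotation held 8 further genes described as cysteine oxidase or cysteamine dioxygenase, 6 of them expressed above the filter, while LOC_Os09g14700 and LOC_Os09g29480 stayed below 1 TPM in every library. The 12 genes together summed to 715 ± 136 TPM in the mutant and 704 ± 118 TPM in the wild type, and to 1048 ± 311 in the mutant and 479 ± 133 in the wild type after scaling. One gene dominated this pool. LOC_Os03g45210, closest to Arabidopsis PCO3, was listed at 443, 614 and 438 TPM in the mutant and at 552, 505 and 371 TPM in the wild type. It made up 69.6% ± 3.59 of the summed TPM in the mutant and 67.5% ± 7.58 in the wild type, with overlapping groups. The 4 listed cysteine oxidases are thus a minor part of the transcripts annotated with this activity.

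A share of the summed family TPM is a ratio within a library and does not depend on the scaling between libraries. The 4 genes together held 12.4%, 13.5% and 14.9% of it in the mutant, against 11.5%, 7.13% and 11.7% in the wild type. The groups did not overlap, but mutant replicate 1 and wild-type replicates 1 and 3 lay within 1 percentage point of each other. LOC_Os01g40450 held 2.55% ± 0.34 of the family in the mutant and 1.36% ± 0.40 in the wild type, and LOC_Os01g09030 held 1.46% ± 0.14 in the mutant and 1.03% ± 0.13 in the wild type. LOC_Os08g37470 held 0.34% ± 0.09 in the mutant and 0.07% ± 0.06 in the wild type. These 3 genes had shares without overlap, all higher in the mutant, whereas LOC_Os12g42860, with 9.25% ± 1.22 in the mutant and 7.66% ± 2.24 in the wild type, overlapped. Among the 4 genes themselves, LOC_Os12g42860 supplied 67.9% ± 4.52 of their summed TPM in the mutant and 75.2% ± 3.69 in the wild type, with overlap. LOC_Os01g40450 supplied 18.8% ± 2.74 in the mutant and 13.5% ± 2.28 in the wild type, without overlap.

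**Figure D2:**
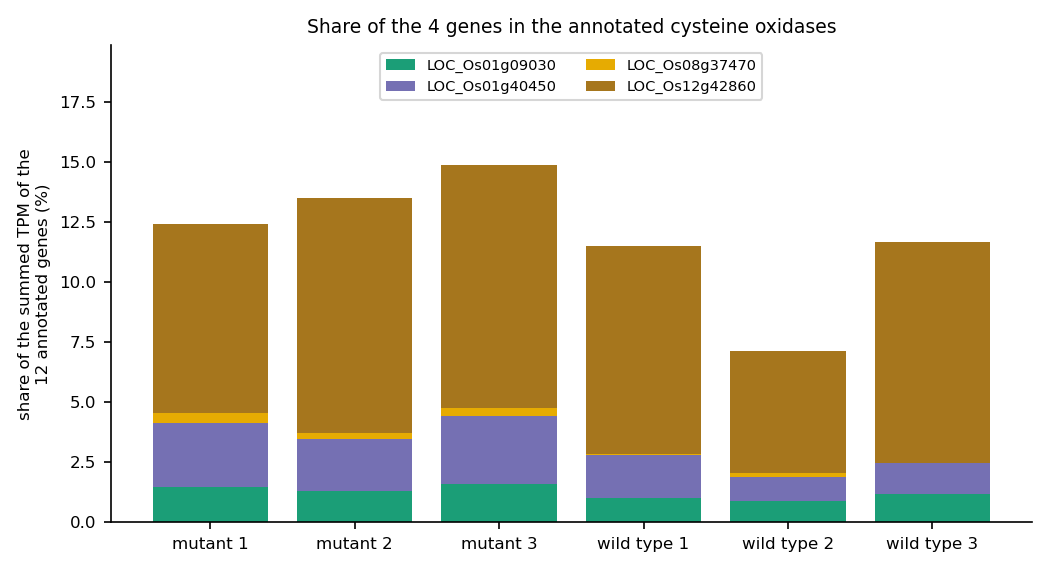
Share of the 4 cysteine oxidases in the summed TPM of the 12 annotated genes, in percent, for the 3 mutant libraries on the left and the 3 wild-type libraries on the right. Each bar is 1 library, stacked by gene. The mutant bars reach 12.4% to 14.9% and the wild-type bars 7.13% to 11.7%.

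The 4 genes are the annotated cysteine oxidases with the highest scaled log2 differences, 1.40 to 1.90. The lowest of them is LOC_Os12g42860, and the gene just below it, LOC_Os03g45250, had 1.25. LOC_Os03g45250, closest to PCO2, was listed at 37.9, 61.1 and 56.1 TPM in the mutant and at 43.3, 35.8 and 57.7 TPM in the wild type. It overlapped on TPM and did not overlap after scaling, where the limma test gave an adjusted p of 0.0711. LOC_Os05g51470, also closest to PCO2, averaged 50.9 ± 8.72 TPM in the mutant and 63.8 ± 13.0 TPM in the wild type. Its log2 difference was -0.31 on TPM (adjusted p = 0.458, limma) and 0.76 after scaling (adjusted p = 0.104, limma), so its sign turned with the scaling.

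What the 4 genes share beyond the rule is the kind of their best Swiss-Prot match. It was PCO1 for LOC_Os01g40450 and LOC_Os08g37470 and PCO2 for LOC_Os01g09030 and LOC_Os12g42860, and PCO3 or PCO5 for none. Of the 12 annotated genes, 7 were closest to PCO1 or PCO2 and 5 to PCO3 or PCO5. After scaling, all 6 expressed genes of the PCO1 and PCO2 kind were higher in the mutant without overlap, against 0 of the 4 expressed genes of the PCO3 and PCO5 kind, where 17.0% of all genes were. On TPM these counts were 3 of 6 and 0 of 4, where 3.68% of all genes were. Since 4 of the 6 genes were chosen for being higher, and LOC_Os08g37470 passed the filter only through the mutant, nothing is read from these counts and the split was not tested.

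The 3 other expressed genes of the PCO3 and PCO5 kind, besides LOC_Os03g45210, had lower mean TPM in the mutant. LOC_Os08g03870, closest to PCO3, was listed at 6.64, 11.3 and 10.4 TPM in the mutant libraries and at 45.3, 17.9 and 24.3 TPM in the wild-type libraries. It fell on TPM, with a log2 difference of -1.46 (adjusted p = 0.0440, limma), which was lost after scaling (-0.43, adjusted p = 0.251, limma). LOC_Os08g04010, also closest to PCO3, averaged 2.56 ± 0.93 TPM in the mutant and 8.09 ± 4.31 TPM in the wild type, with a log2 difference of -1.28 (adjusted p = 0.0518, limma). After scaling that difference was -0.40 (adjusted p = 0.217, limma), with the mutant still lower without overlap. LOC_Os04g06790, closest to PCO5, averaged 4.52 ± 0.53 TPM in the mutant and 9.47 ± 3.06 TPM in the wild type (log2 difference -0.89, adjusted p = 0.0734, limma), and 6.55 ± 1.43 in the mutant against 6.13 ± 0.34 in the wild type after scaling. All 3 of these TPM differences lay below the median of all genes, which was -0.86. For LOC_Os04g06790 the difference minus that median was only -0.03, and 0.08 after scaling, so it lay close to the median on both scales. The shares of the 3 genes in the family TPM were lower in the mutant without overlap, as in LOC_Os08g03870 with 1.31% ± 0.23 in the mutant and 4.03% ± 1.37 in the wild type.

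**Figure D3:**
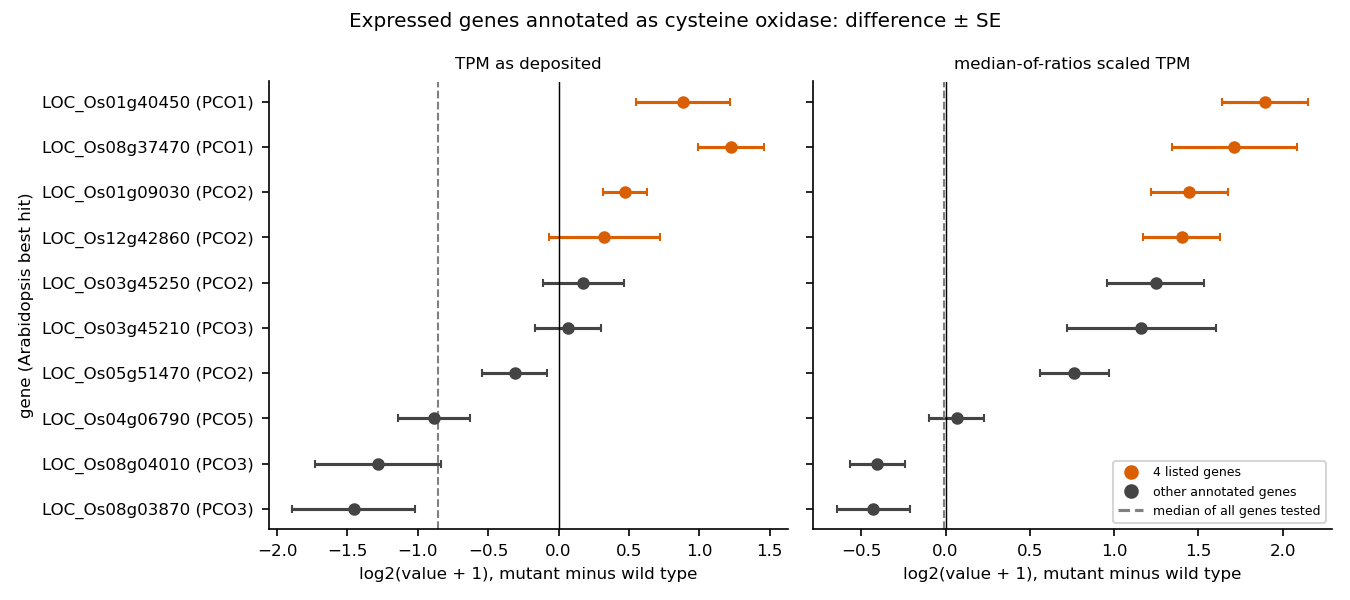
Difference in log2(value + 1), mutant minus wild type, for the 10 expressed genes annotated as cysteine oxidase, on TPM (left panel) and after scaling (right panel). Points are differences of means over 3 libraries each, bars are ± SE, and the dashed line is the median of all genes tested, -0.86 on TPM and -0.01 after scaling. The 4 listed genes, in orange, run from 0.33 to 1.23 on TPM and from 1.40 to 1.90 after scaling.

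The other genes of the pathway were taken from lists made by annotation, 85 genes in all without the 4 cysteine oxidases, of which 49 were expressed. On TPM limma called 0 of these 49 higher in the mutant and 11 lower (adjusted p under 0.05), where 1.55% of all genes tested were called higher and 26.3% lower. At an unadjusted p under 0.05, 1 was higher and 18 were lower, where 2.65% of all genes were higher and 48.9% lower. After scaling limma called 0 of 49 in either direction, where 1.6% of all genes were called higher and 1.03% lower, and at an unadjusted p under 0.05, 13 were higher and 7 lower, where 15.4% of all genes were higher and 17.5% lower. These shares are the background of the unadjusted counts given for single lists below. The median log2 difference of the 49 genes was -0.52 on TPM, beside -0.86 for all genes, and 0.52 after scaling, beside -0.01. The 11 lower calls were sensitive to single libraries: none was called without mutant replicate 1, mutant replicate 2, wild-type replicate 1 or wild-type replicate 3, and 20 were called without wild-type replicate 2.

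Before a cysteine can be oxidised, methionine aminopeptidases remove the initial methionine, and afterwards amidases, arginyl transferase and ubiquitin ligases act on the N terminus. Of 15 expressed genes annotated with these steps, 4 fell on TPM, 0 rose, and none was called after scaling (3 higher and 4 lower at an unadjusted p under 0.05). Their median difference was -1.05 on TPM and -0.16 after scaling. LOC_Os10g36470, annotated as methionine aminopeptidase 1A, had the smallest p, with 7.99 ± 4.62 TPM in the mutant and 36.6 ± 23.0 TPM in the wild type (log2 difference -2.01, adjusted p = 0.0436, limma). LOC_Os06g41390, whose best Swiss-Prot match is the mouse N-terminal asparagine amidohydrolase Ntan1, fell to 6.08 ± 1.79 TPM in the mutant, against 17.7 ± 6.67 TPM in the wild type (adjusted p = 0.0436, limma). LOC_Os09g33740, closest to PRT1, an Arabidopsis ubiquitin ligase for aromatic N termini, fell to 0.90 ± 0.75 TPM in the mutant, against 4.95 ± 3.33 TPM in the wild type (adjusted p = 0.0437, limma). Mutant replicates 1 and 2 of this gene were at 0.50 and 0.43 TPM. It passed the filter on low values only with the wild-type libraries, which favoured a fall. After scaling the log2 difference was -0.91 for LOC_Os09g33740 (adjusted p = 0.102) and -0.39 for LOC_Os06g41390 (adjusted p = 0.230, both limma). LOC_Os06g41390 then overlapped, while LOC_Os10g36470 stayed lower in the mutant without overlap (adjusted p = 0.0946, limma).

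Arginyl transferase and the ligase of the PRT6 kind, which act after cysteine oxidation, were not among the calls. Both genes, outside the rule for named genes, were chosen for their role after their values were seen. LOC_Os05g37434, annotated as arginyl transferase, which adds arginine to the oxidised cysteine, averaged 8.79 ± 2.60 TPM in the mutant and 7.31 ± 1.08 TPM in the wild type, with a log2 difference of 0.21 on TPM (adjusted p = 0.614, limma) and 1.17 after scaling (adjusted p = 0.0843, limma). LOC_Os01g05500, closest to PRT6, the Arabidopsis ligase that recognises the arginylated proteins, averaged 17.7 ± 3.44 TPM in the mutant and 24.7 ± 5.51 TPM in the wild type, with a log2 difference of -0.46 on TPM (adjusted p = 0.275, limma) and 0.59 after scaling (adjusted p = 0.135, limma). For both genes the size of the difference, and for LOC_Os01g05500 its sign, turned on the scaling.

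Among the candidate substrates, 9 expressed genes carried an annotation as RAP2-12-type ethylene response factors or another matching term. On TPM 1 fell and 0 rose, and none was called after scaling (5 higher and 1 lower at an unadjusted p under 0.05). The median difference of the list was 0.14 on TPM and 1.05 after scaling. LOC_Os03g08460, annotated as a RAP2-12 relative and as rice EREBP1, was listed at 15.8, 29.2 and 22.3 TPM in the mutant libraries and at 7.49, 14.7 and 12.7 TPM in the wild-type libraries. The groups did not overlap, and the difference of 0.90 on TPM had an adjusted p of 0.0911 (limma), with 1.90 and an adjusted p of 0.0674 after scaling. LOC_Os03g08470 and LOC_Os03g08500, also annotated as rice EREBP1 and named after their values were seen, overlapped on TPM, with differences of 0.14 and -0.99. After scaling these were 1.05 and -0.12, and LOC_Os03g08470 no longer overlapped. The gene that fell on TPM, LOC_Os01g04020, carried a RAP2-2 description and a closest match to ESR1, a shoot regeneration factor that is not a group VII member, with 44.3 ± 25.1 TPM in the mutant and 138 ± 38.6 TPM in the wild type (log2 difference -1.72, adjusted p = 0.0436, limma). LOC_Os10g28350, an acireductone dioxygenase of the methionine salvage cycle caught by the same text search, had a difference of -1.18 (adjusted p = 0.0963, limma). After scaling the differences of LOC_Os01g04020 and LOC_Os10g28350 were -0.65 and -0.33.

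Fermentation enzymes and haemoglobins are classical low-oxygen genes downstream of the ethylene response factors. Of 13 expressed genes in the fermentation list, 3 fell on TPM, 0 rose, and none was called after scaling (1 higher and 1 lower at an unadjusted p under 0.05), with a median of -0.30 on TPM and 0.60 after scaling. The 3 that fell are not fermentation enzymes of the ethanol route. LOC_Os02g09490 (log2 difference -1.72, adjusted p = 0.0436) and LOC_Os10g11810 (-1.33, adjusted p = 0.0452) are annotated as cinnamyl alcohol dehydrogenases of lignin synthesis, and LOC_Os02g57040 (-1.74, adjusted p = 0.0448, all limma) as a class III alcohol dehydrogenase, which detoxifies formaldehyde. After scaling these differences were -0.76, -0.30 and -0.67, in that order of genes. LOC_Os11g10480, annotated as alcohol dehydrogenase ADH1 and named for its role after its values were seen, stood at 52.6, 61.6 and 80.5 TPM in the mutant and at 44.5, 72.1 and 182 TPM in the wild type. The wild-type libraries spanned the whole mutant range (log2 difference -0.39, adjusted p = 0.546, limma), and after scaling the sign turned, to 0.69 (adjusted p = 0.408, limma), with the groups still overlapping. LOC_Os01g06660, closest to maize pyruvate decarboxylase PDC1 and named on the same ground, had the largest log2 difference of the list on both scales. It stood at 21.0, 25.9 and 23.0 TPM in the mutant and at 2.65, 18.4 and 21.2 TPM in the wild type, where wild-type replicate 1 was far below the others (log2 difference 1.06, adjusted p = 0.199, limma). Its groups overlapped on TPM and did not overlap after scaling, with 34.2 ± 9.62 in the mutant and 10.8 ± 8.41 in the wild type (log2 difference 2.01, adjusted p = 0.121, limma). The other expressed pyruvate decarboxylases, named after their values were seen, went both ways. LOC_Os03g18220, annotated as PDC2 and the most abundant, was lower on TPM without overlap (-0.56). After scaling it was higher without overlap (0.52). LOC_Os07g02030, annotated as PDC3, had -1.11 on TPM and -0.12 after scaling. LOC_Os05g39310 and LOC_Os05g39320, annotated as rice PDC1, overlapped, with 0.42 and 0.98 on TPM and 1.22 and 1.76 after scaling.

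Of 3 expressed genes in the haemoglobin list, 2 fell on TPM, 0 rose and none was called after scaling (1 higher and 1 lower at an unadjusted p under 0.05). LOC_Os06g39140, a haemoglobin of the truncated type, fell to 19.2 ± 2.72 TPM in the mutant, against 46.3 ± 7.65 TPM in the wild type (log2 difference -1.22, adjusted p = 0.0436, limma), and the groups overlapped after scaling. LOC_Os01g22520, which fell by 1.82 on the log2(TPM + 1) scale (adjusted p = 0.0437, limma), is annotated as a leghaemoglobin reductase and as a mitochondrial dihydrolipoyl dehydrogenase and is not itself a haemoglobin. After scaling its difference was -0.79 (adjusted p = 0.106, limma). LOC_Os03g12510, the non-symbiotic haemoglobin Hb2, averaged 5.51 ± 1.65 TPM in the mutant and 5.88 ± 2.11 TPM in the wild type, with a log2 difference of -0.06 (adjusted p = 0.909, limma) on TPM and 0.87 (adjusted p = 0.0651, limma) after scaling. A single expressed gene remained in the list of other low-oxygen genes, LOC_Os04g57320, the plastid terminal oxidase, with a difference of -0.83 on TPM (adjusted p = 0.0864, limma). The 8 expressed genes with a low-oxygen annotation term were 6 cysteine oxidases already described and 2 betaine aldehyde dehydrogenases, and LOC_Os08g03870 was the only one of them called.

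**Figure D4:**
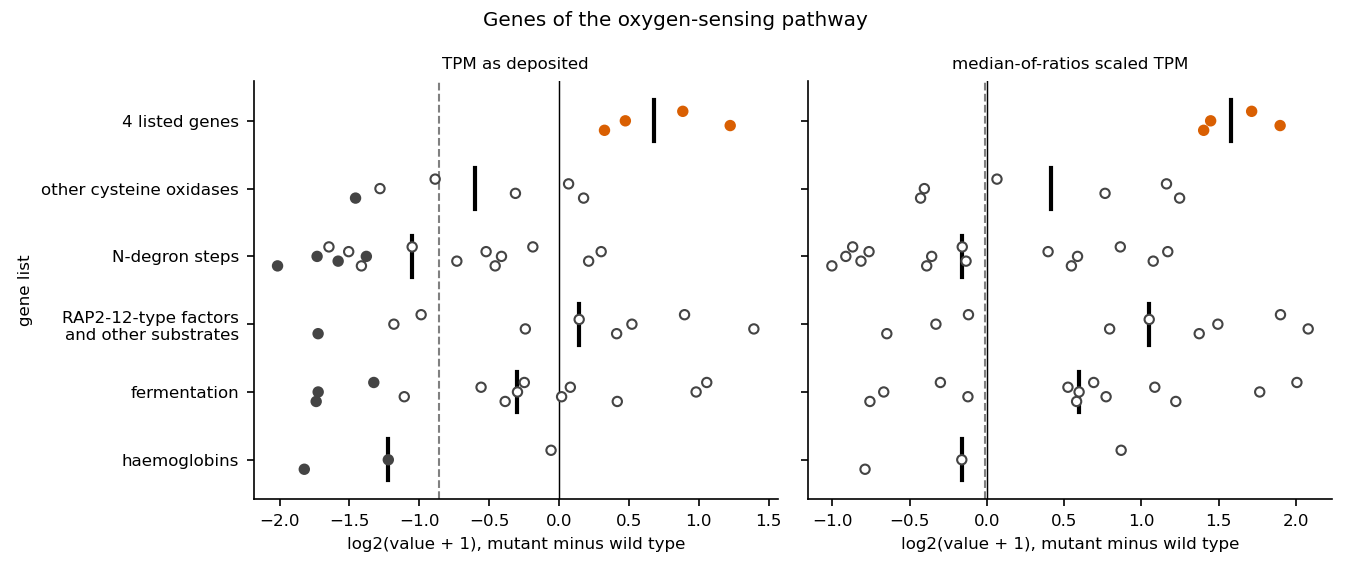
Difference in log2(value + 1), mutant minus wild type, of each expressed gene in 5 lists and of the 4 cysteine oxidases, on TPM (left panel) and after scaling (right panel). Each point is a gene, filled dark points have a limma adjusted p under 0.05, orange points were not tested, thick vertical bars are list medians, and the dashed line is the median of all genes tested. The filled points all lie below 0 on TPM, and none is filled after scaling.

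The genes most like each cysteine oxidase were ranked by the correlation of log2 scaled levels over the 6 libraries, among 6651 genes with a mean of at least 5 TPM and an informative description. With 6 libraries in 2 separate groups such a value mainly reflects the difference between genotypes and is a description only. For LOC_Os01g09030 they were LOC_Os10g36880, a kinesin-related protein (r = 0.998), and LOC_Os03g06330, a receptor-like protein kinase (r = 0.997). For LOC_Os01g40450 they were LOC_Os05g25194, a putative zinc transporter (r = 0.998), and LOC_Os12g18860, an alpha/beta hydrolase (r = 0.997). For LOC_Os08g37470 they were LOC_Os03g01890, the homeodomain-leucine zipper factor HOX10 (r = 0.998), and LOC_Os09g38550, a protein phosphatase 2C (r = 0.997). For LOC_Os12g42860 they were LOC_Os07g41694, an acidic nuclear phosphoprotein (r = 0.993), and LOC_Os01g48790, a YTH-domain protein (r = 0.990). None of these 8 genes is on a list of the oxygen-sensing pathway. As an example, LOC_Os10g36880 stood at 49.6, 44.7 and 26.1 in the mutant and at 6.58, 12.1 and 8.0 in the wild type after scaling, the same order of libraries within the mutant as LOC_Os01g09030. The likeness was measured after scaling only, and on TPM the genes went both ways. LOC_Os10g36880 stayed higher in the mutant, at 24.47, 31.85 and 25.25 TPM, against 13.21, 12.82 and 12.53 TPM in the wild type. LOC_Os07g41694 had a lower mean in the mutant, at 10.24, 15.19 and 17.05 TPM, against 28.93, 14.67 and 23.29 TPM.

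Splicing was a measure that had not been used to choose the genes. The authors' tables listed 6 events in 3 of the 4 loci and none in LOC_Os08g37470. An inclusion level is the fraction of transcripts, corrected for length, that carry the longer form. Only 3 events had at least 20 junction reads in every library, and none of these was called at an adjusted p under 0.05 with a difference of at least 0.1, where 0.494% of the 5471 events tested were called. None of the 3 had an unadjusted p under 0.05 either.

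The events with enough reads were nearly constant. In LOC_Os01g40450, 2 donor sites of an exon on the minus strand lie 30 bases apart, with the long exon at chr1:22838224-22838383 and the short one starting at 22838254 in the coordinates of the deposited tables, whose genome build was not given in the sources used here. The long form had inclusion levels of 0.981, 0.993 and 1 in the mutant, from 105 to 178 junction reads, and of 1 in both libraries of the wild type, from 25 to 38 reads (adjusted p = 0.620, quasi-binomial model with limma-moderated dispersion). In LOC_Os12g42860, 2 introns were retained at levels between 0 and 0.003 in both the mutant and the wild type, from 328 to 558 reads in the mutant and from 186 to 297 reads in the wild type. Their adjusted p-values were 0.853 and 0.865 in the same model.

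LOC_Os01g09030 was the one locus in which both forms of an exon were common. A 61-base exon at chr1:4544321-4544381 on the plus strand lies between an upstream exon ending at 4542646 and a downstream exon starting at 4544503. It had inclusion levels of 0.769, 0.575 and 0.402 in the mutant, from 17, 29 and 33 junction reads. In the wild type the levels were 0.322, 0.487 and 0.263, from 5, 21 and 15 reads. The groups overlapped, and the exact (Clopper-Pearson) 95% intervals were wide, such as 0.241 to 0.585 for the deepest mutant library and 0.269 to 0.719 for the deepest wild-type library. This event fell short of the read minimum and was not tested, and the authors' deposited table gave it a p-value of 0.104 and an FDR of 0.811.

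An event at an alternative donor site of the same region counts the same skipping reads and is not independent of the exon. Its inclusion levels were 0.769, 0.565 and 0.424 in the mutant, against 0.400 and 0.231 in the wild type. The groups did not overlap, but the nearest libraries, at 0.424 and 0.400, had 95% intervals of 0.276 to 0.592 and 0.205 to 0.642. With 3 mutant and 2 wild-type libraries, and no share of all events beside it, nothing is read from the lack of overlap. With a minimum of 10 reads it entered the model, with a difference of 0.27 and an adjusted p of 0.515 (quasi-binomial model), while the authors' deposited table gave a p-value of 0.0324 and an FDR of 0.207. Retention of the intron upstream had levels of 0.400, 0.310 and 0.429 in the mutant, from 14 to 19 reads, and of 0.25 and 0.5 in the wild type, from 10 and 3 reads. The exon and the retained intron of LOC_Os01g09030 were not tested for a difference. The intervals cover counting error only.

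**Figure D5:**
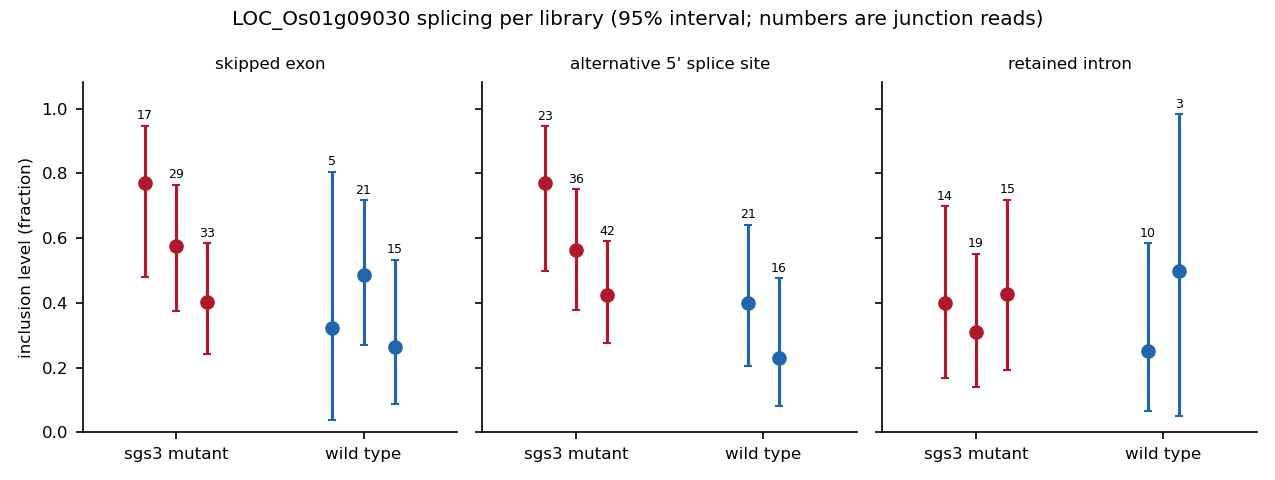
Inclusion level of the 3 splicing events listed for LOC_Os01g09030, with the mutant libraries in red on the left and the wild-type libraries in blue on the right of each panel. Points are single libraries, bars are 95% Clopper-Pearson intervals transformed for form length, and the number above each point is its junction reads. Reads range from 14 to 42 in the mutant and from 3 to 21 in the wild type.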

How the data were processed

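RNA from grains was sequenced in 3 sgs3 mutant and 3 wild-type libraries, with a SMARTer mRNA kit per the labels. The tools named in the submitters' processing notes, without their roles, are Bowtie2, DESeq2 1.12.4, HISAT2 2.1.0, StringTie and RSEM. The genome build was not given in the sources used here. The deposited gene table holds TPM values, although it is named as counts, with library sums between 967526 and 994306. Per the file headers, the deposited splicing tables hold inclusion levels as a fraction, junction read counts, and a p-value and FDR from the authors' own test.

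Genes that reached 1 TPM in 3 or more libraries were tested on log2(TPM + 1) with limma 3.58.1 in R 4.3.3, using a mean-variance trend, 4 residual degrees of freedom before moderation and Benjamini-Hochberg adjustment over all 16352 genes, and again after median-of-ratios scaling. SEs of the 4 cysteine oxidases and in the plots are those of the difference of group means. Splicing events needed 20 junction reads in each library and were tested with a quasi-binomial model whose dispersion limma moderated. Group headings of the read columns contradict those of the inclusion columns, and groups were taken from the inclusion headings. Inclusion levels recomputed from the reads under this assignment matched within 0.0005, and the reads followed the TPM of that genotype in 94.6% of 6008 events in genes changed at least 2-fold. Kinds other than exon skipping had 2 wild-type libraries. Tables and plots were made in Python 3.11.15 (matplotlib 3.10.9, numpy 2.4.6, pandas 2.3.3, scipy 1.17.1), and the fits were tested on simulated data.

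The 4 genes and the pathway lists were chosen with earlier results of these data known. Named genes were every expressed member of a list with at most 5, otherwise the 3 with the smallest limma p, and the 2 genes most like each cysteine oxidase. Other named genes are said to be so. A 13th gene with both annotation terms, LOC_Os09g15740, was at 0 in every library.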

Additional observations from a re-analysis of the deposited data

How the results depend on the processing

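The log2(TPM + 1) differences of the 4 cysteine oxidases kept their sign in every alternative run. The genes were chosen for being higher in the mutant, so this is a description and not support. Leaving out a library or changing the pseudocount could not turn the sign of the 3 whose groups did not overlap on TPM. Scaling moved the differences to 1.45 for LOC_Os01g09030, 1.90 for LOC_Os01g40450, 1.71 for LOC_Os08g37470 and 1.40 for LOC_Os12g42860, and a pseudocount of 0.1 moved LOC_Os08g37470 to 2.37. Leaving out 1 library gave, on TPM, 0.37 to 0.58, 0.67 to 1.21, 1.08 to 1.45 and 0.03 to 0.57 in that order of genes, and after scaling 1.33 to 1.65, 1.74 to 2.09, 1.50 to 1.96 and 1.23 to 1.61. The differences in their share of the family ranged over 0.36 to 0.50, 1.01 to 1.41, 0.22 to 0.32 and 0.31 to 2.36 percentage points. Without a mutant replicate LOC_Os08g37470 fails the filter, so its value was computed directly. Counts over all genes were unstable, and the cause was not tested. The 253 genes called higher on TPM became 42 with no filter and 5 to 383 on leaving out a library, and the 262 after scaling became 12 to 1000. The 4295 called lower became 169 after scaling, 65 with no filter and 9 to 7275 on leaving out a library, and the 169 became 15 to 1352. List genes called lower on TPM, 11, became 0 after scaling, 0 with no filter and 0 to 20 on leaving out a library. After scaling, list genes called higher ranged from 0 to 5 on leaving out a library, with 5 without mutant replicate 3 and 1 without wild-type replicate 2. The signs of the near-zero intron retention differences in LOC_Os12g42860 also turned, over -0.0017 to 0.0016 for one event and -0.0011 to 0.0016 for the other, and the donor site of LOC_Os01g40450 ranged over -0.0130 to -0.0034. Scaling turned LOC_Os03g12510 to 0.87 and LOC_Os04g06790 to 0.065, and leaving out a library took LOC_Os03g12510 over -0.34 to 0.10. Deviations of same-numbered libraries from their group means on TPM had r = -0.53, 0.21 and -0.09, within the -0.56 to 0.54 of all pairs. With 3 libraries a group these values cannot show or exclude a pairing, and the labels name none. A fit with the replicate number as a block called 50 genes higher and 82 lower on TPM, 0 list genes, and 70 higher and 46 lower after scaling. No paired analysis was possible for splicing because its values carry no replicate number. The scaled single-library alternatives and scaled block were added after seeing the data. The read depth behind TPM is unknown, and 3 libraries a group limit every value.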
